A study of Mus musculus with 22 samples.

Results

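The genes followed here carry the bone morphogenetic protein (BMP) signal in the cell: the receptors Bmpr1a, Bmpr1b, Bmpr2 and Acvr1, the signal-carrying Smad1 and Smad5, and the target genes Id1, Id2, Id3 and Id4. The list was set with earlier results of these data known. Its genes were matched by exact symbol, and all 10 of 10 were found among 34866 genes of the culture tables and among 23911 genes of the cartilage table. The study sequenced RNA of mouse chondrocytes, the cells of cartilage, in which the DNA methyltransferase gene Dnmt1 was intact or deleted. Primary chondrocytes came from knee articular cartilage of mice at postnatal days 3 to 5, with genotype Dnmt1 flox (control) or Prrx1-Cre;Dnmt1 flox/flox (conditional knockout, cKO). Prrx1-Cre acts in the mesenchyme of the limb bud, so the deletion is not particular to chondrocytes, and cells that never expressed the Cre keep Dnmt1. The culture groups were untreated control at day 0 (n = 3), untreated cKO at day 0 (n = 3), control after 3 days of BMP2 given at 100 ng/µl (n = 4) and cKO after the same 3 days (n = 4). Cartilage, treated with collagenase to remove connective tissue, was taken at postnatal day 5 and gave 4 control and 4 cKO samples, with 2 males and 2 females in each genotype; the labels number the replicates and do not name litters. The day 0 and day 3 cultures were deposited as separate tables, and no untreated day 3 group was analysed here, so day, BMP2 and table cannot be told apart in any change from day 0 to day 3.

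BMP ligands bind a complex of type 1 receptors (Bmpr1a, Bmpr1b and Acvr1) and type 2 receptors (such as Bmpr2). The type 1 receptor kinases phosphorylate Smad1 and Smad5, which enter the nucleus with Smad4 and switch on target genes, among them the Id genes. Id proteins have a helix-loop-helix but no DNA-binding part, so they pair with basic helix-loop-helix (bHLH) transcription factors such as the E proteins and keep them from DNA. In cartilage, BMP signalling through Bmpr1a and Bmpr1b is needed for chondrocytes to form and to mature, and the inhibitory Smads, Smad6 and Smad7, are induced by the pathway and damp it. What was measured here is messenger RNA, which says nothing of Smad phosphorylation or of receptor protein.

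In GRCm38, the mouse genome build of the tables, Bmpr1a lies at chr14:34410734-34503341, Bmpr1b at chr3:141837136-142169425, Bmpr2 at chr1:59763400-59879014 and Acvr1 at chr2:58388644-58567157. Smad1 lies at chr8:79338395-79399518 and Smad5 at chr13:56703010-56742377. The Id genes are short: Id1 spans chr2:152736251-152737410, Id2 chr12:25093799-25097140, Id3 chr4:136143497-136145755 and Id4 chr13:48261228-48266026. A GC-rich element with the letters GGCGCC is a known binding sequence of Smad1 and Smad5 in BMP target genes, and its letters read the same on both strands. RefSeq start sites (GRCm38.p6) gave 13 windows of 250 bases upstream of a start for 9 of the 10 genes. Id1 had no entry under its symbol, so its upstream sequence was not examined. GGCGCC was present in 5 of these 13 windows, against 9.59% of all 32851 windows of that length in the table. The 5 windows held 18 to 36 CG dinucleotides, above the upper quartile of all windows (16), and GGCGCC itself contains a CG. The comparison takes no account of CG content and was not tested. The 5 stretches of 30 bases that hold it are shown because they are where the Smad element's letters occur in these windows before a RefSeq start, and GGCGCC is in capitals.
Bmpr1a: tgcgcgcgcgccGGCGCCtcttgctcgccc
Bmpr2: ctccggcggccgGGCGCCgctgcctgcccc
Smad5: ccccggcgagcgGGCGCCgagcgcttgtcc
Id2: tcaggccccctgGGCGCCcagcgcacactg
Id4: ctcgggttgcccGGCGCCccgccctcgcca

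The Bmpr1a stretch is chr14:34502727-34502756 on the minus strand, the Bmpr2 stretch chr1:59764162-59764191 on the plus strand and the Smad5 stretch chr13:56703021-56703050 on the plus strand. The Id2 stretch is chr12:25096306-25096335 on the minus strand and the Id4 stretch chr13:48260956-48260985 on the plus strand. The Bmpr2 and Smad5 stretches lie in annotated exons (30 of 30 bases), and the other stretches hold 0 exon bases. The Id4 stretch lies before the annotated gene, and the Bmpr1a, Bmpr2, Smad5 and Id2 stretches lie inside the gene spans given above, since those genes have annotated transcripts that begin further upstream. The element begins 148 bases before the Id4 start and 231 bases before the Id2 start. A match of letters is a description and was not tested as a binding site. DNA methylation acts on CG dinucleotides, and the 13 windows held from 1 CG (a Bmpr1b start) to 46 CG (Acvr1), against a median of 6 over all windows (quartiles 2 and 16). The Id4 window, at chr13:48260866-48261115, held 35 CG and no annotated exon. It is given whole as the Id window with the most CG (Id2 and Id3 held 18 each, and Id1 had no window), with GGCGCC in capitals.
Id4: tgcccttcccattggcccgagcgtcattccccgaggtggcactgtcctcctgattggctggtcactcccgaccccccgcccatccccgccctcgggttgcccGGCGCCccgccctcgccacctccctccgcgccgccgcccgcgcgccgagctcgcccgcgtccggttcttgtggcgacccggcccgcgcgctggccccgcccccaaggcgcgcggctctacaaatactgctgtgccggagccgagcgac

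Levels are given as CPM (counts relative to the size of each library), with factors between libraries from the trimmed mean of M values (TMM). Day 0 libraries held 41749546 to 51741669 counts, day 3 libraries 14434320 to 18918905 and cartilage libraries 1100198 to 1888896. Dnmt1 itself was at 153 to 166 CPM in control and 26.8 to 32.8 CPM in cKO cultures at day 0, at 63.3 to 81.5 against 10.9 to 35.6 CPM at day 3, and at 34.5 to 48.6 against 11.8 to 14.3 CPM in cartilage. With the estimated counts of the same cartilage libraries, the gap was smaller, at 44.1 to 62.5 CPM in control against 26.5 to 33.4 CPM in cKO. The summed level of 7 chondrocyte markers (Col2a1, Acan and others) was 126900 to 134300 CPM in control and 47470 to 57620 CPM in cKO cultures at day 0, and 81620 to 100500 against 1113 to 15410 CPM at day 3. The summed level of 8 skeletal muscle markers was 12.7 to 14.2 against 74.1 to 79.1 CPM at day 0 and 1.58 to 1.92 against 155 to 2065 CPM at day 3. One library stood apart: cKO replicate 4 at day 3 had the lowest chondrocyte sum (1113 CPM), the lowest muscle sum of its group (155 CPM) and the highest hypertrophic sum (2482 against 643 to 1022 CPM in the other cKO libraries), so day 3 results whose call or direction it changes are also given without it. In bulk RNA, fewer cells of a type and less RNA per cell cannot be told apart, and the part that these markers have in the results below was not tested. All control cartilage libraries were in library pool 01 and all cKO libraries in pool 02, so that pool and genotype cannot be told apart in tissue.

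Per kilobase of exon, Id1 and Id3 stood at the top of the order in untreated control cultures. Id1 (71.9 CPM per kb) and Id3 (71.2 CPM per kb) overlapped, followed by Bmpr1a (28.5), Id2 (25.2), Smad5 (12.6), Acvr1 (10.2) and Id4 (8.43 CPM per kb), each above the next without overlap between libraries. Bmpr2 (4.83), Smad1 (3.60) and Bmpr1b (0.513 CPM per kb) closed the order. Smad5 was therefore more abundant than Smad1 per length, and Bmpr1a was the most abundant of the 4 receptors. In cKO cultures at day 3, Id3 led alone (128 CPM per kb), then Id1 (66.8 CPM per kb) and Bmpr1a (22.0 CPM per kb), whereas Acvr1, Id2, Id4 and Smad5 (16.1 to 10.8 CPM per kb) each overlapped with its neighbour. No order per length is given for cartilage, since 3′ tag counts do not scale with the length of a transcript.

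**Figure D1:**
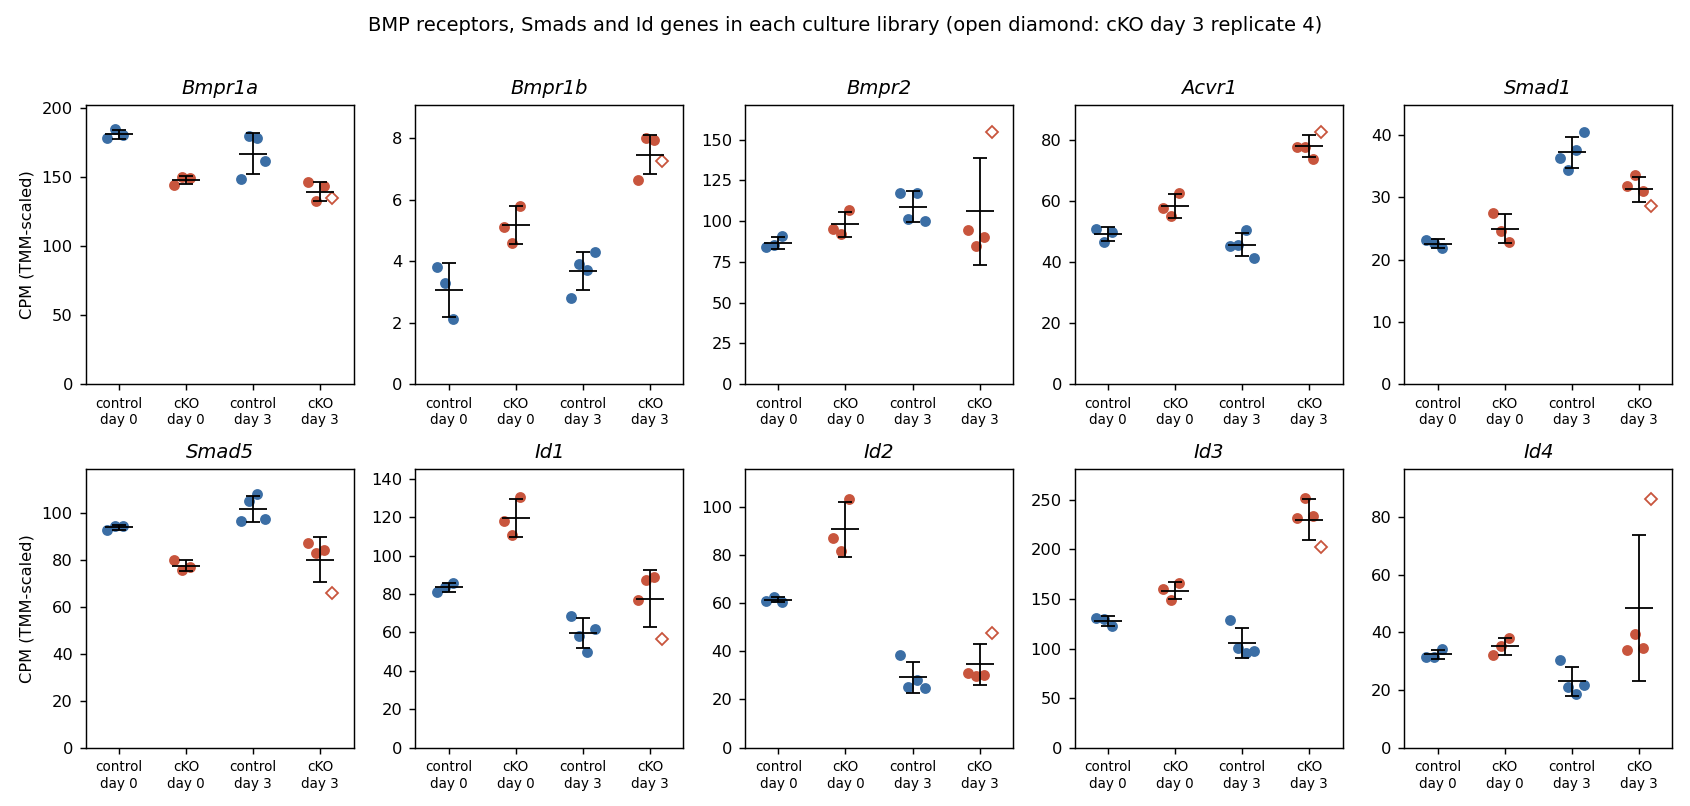
CPM of each gene in the 14 culture libraries (y axis, from 0) by group (x axis), with blue circles for control, red circles for cKO, an open diamond for cKO replicate 4 at day 3, and bars for the mean and SD. Bmpr1a, Bmpr1b, Acvr1, Smad5 and Id3 separate the genotypes on both days, and the diamond is the highest point of its group for Bmpr2, Id2 and Id4.

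Untreated cKO cultures differed from controls in 8 of the 10 genes: 6 were higher and 2 lower at an adjusted p under 0.05, a threshold that 64.5% of all genes tested also passed (33.0% higher, 31.6% lower). The median log2 difference of the 10 genes was 0.21, against 0.01 for all genes. Control and cKO libraries did not overlap for 8 of the 10 genes, which was so for 70.4% of all genes. The share of the 10 genes that differed was thus near the background of this comparison.

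Among the receptors, Bmpr1a, the main type 1 receptor of BMP2 and BMP4, was at 178, 185 and 181 CPM in control and 145, 150.0 and 149 CPM in cKO cultures at day 0. Every cKO library lay below every control library, a log2 difference of -0.29 (SE 0.03, adjusted p = 2.25e-05). The other receptors differed the opposite way. Bmpr1b, the type 1 receptor known for its role in digit cartilage, was at 3.80, 3.28 and 2.10 CPM in control and 5.12, 4.59 and 5.80 CPM in cKO, 0.75 higher (SE 0.20, adjusted p = 0.00811). Its level was the lowest of the 10 genes in both genotypes. Acvr1, the receptor (ALK2) whose activating mutation causes ectopic bone in fibrodysplasia ossificans progressiva, was at 50.8, 46.6 and 49.9 CPM in control and 57.5, 55.0 and 62.5 CPM in cKO, 0.25 higher (SE 0.06, adjusted p = 0.00356). Bmpr2, the type 2 receptor, was at 84.2, 85.2 and 91.0 CPM in control and 95.4, 91.8 and 107 CPM in cKO, 0.17 higher (SE 0.06, adjusted p = 0.0226). This was the smallest of the 8 differences, and it lost its call in 3 of 6 fits that left out 1 library (adjusted p up to 0.0959, without control replicate 1) and in the fit of all cultures (0.461).

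Smad1 and Smad5 did not move together at day 0. Smad5 was at 92.7, 94.1 and 94.3 CPM in control and 80.0, 75.4 and 76.7 CPM in cKO, a log2 difference of -0.28 (SE 0.03, adjusted p = 5.98e-05), with no overlap. Smad1 was at 23.2, 22.6 and 21.8 CPM in control and 27.5, 24.6 and 22.9 CPM in cKO, a difference of 0.14 (SE 0.07, adjusted p = 0.0982) that did not pass, and the groups overlapped.

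Id1, Id2 and Id3 were higher in untreated cKO cultures. Id1 was at 81.0, 83.6 and 85.8 CPM in control and 118, 111 and 130.3 CPM in cKO, 1.43-fold higher (log2 difference 0.52, SE 0.06, adjusted p = 3.45e-05). Id2 was at 60.9, 62.6 and 60.6 CPM in control and 86.9, 81.5 and 103 CPM in cKO, 1.47-fold higher (0.56, SE 0.07, adjusted p = 0.000152). Id3 was at 131, 129 and 122 CPM in control and 159.5, 149 and 166 CPM in cKO, 1.24-fold higher (0.31, SE 0.05, adjusted p = 0.000267). For each of these 3 genes all cKO libraries lay above all control libraries. Id4, best known in neural stem cells and bone-forming cells, was at 31.5, 31.6 and 34.2 CPM in control and 32.2, 35.2 and 38.1 CPM in cKO, which overlapped (0.11, SE 0.07, adjusted p = 0.159). Scaling by library totals alone moved the median of all genes up by 0.11 at day 0 and made Smad1 (0.25, adjusted p = 0.0105) and Id4 (0.22, adjusted p = 0.0155) pass as well. The directions of all 10 genes were the same with either scaling.

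**Figure D2:**
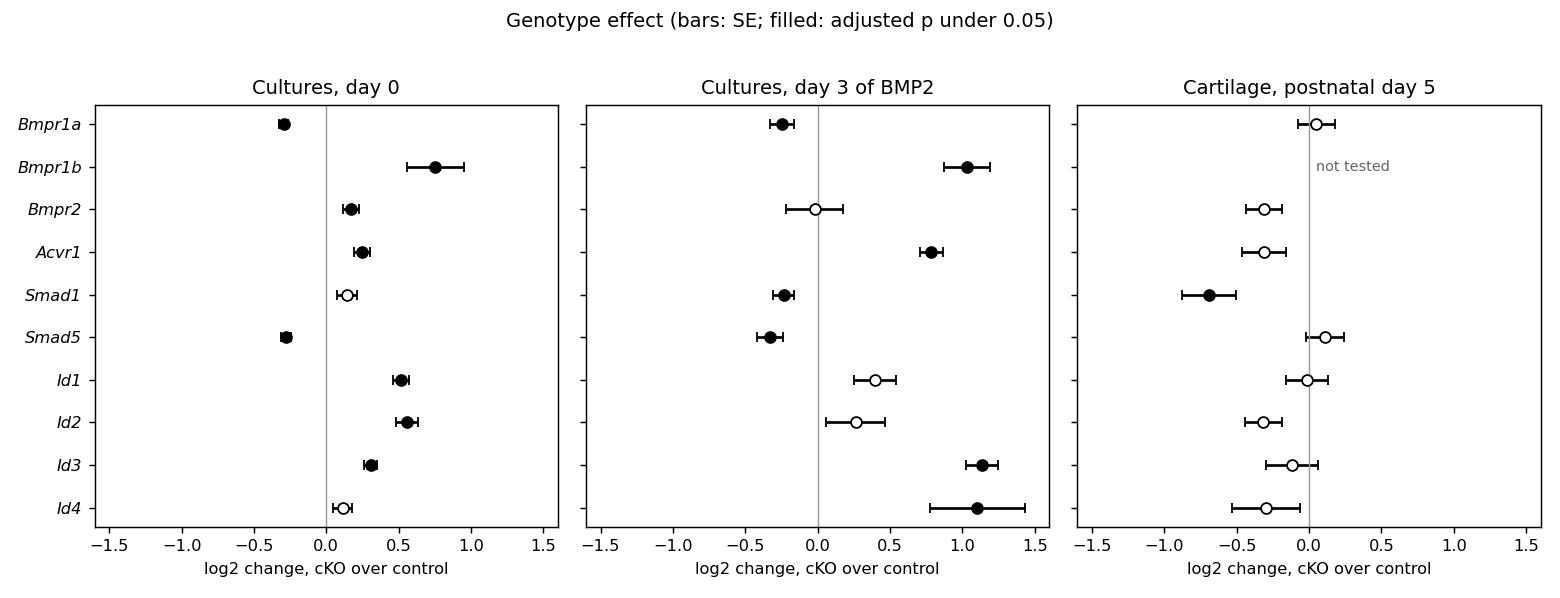
Log2 difference of cKO from control (x axis) for each gene (rows) in untreated cultures, in cultures after 3 days of BMP2 and in cartilage, with bars for the SE and filled points where the adjusted p was under 0.05. Bmpr1a and Smad5 lie left of 0 and Acvr1, Bmpr1b and Id3 right of 0 in both culture panels, while in cartilage only Smad1 (-0.69) is filled.

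After 3 days of BMP2, 7 of the 10 genes differed between genotypes, 4 higher and 3 lower in cKO, where 48.1% of all genes passed (25.5% higher, 22.6% lower). The groups did not overlap for 7 of the 10 genes, against 47.9% of all genes, and the median log2 difference of the 10 was 0.33 against 0.01. The count was 8 with DESeq2, 4 with library totals alone and 9 without cKO replicate 4.

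Acvr1 and Id3 had the smallest adjusted p. Acvr1 was at 45.1, 45.7, 50.6 and 41.4 CPM in control and 77.6, 77.5, 73.8 and 82.5 CPM in cKO, 1.72-fold higher (0.78, SE 0.08, adjusted p = 0.000118). Id3 was at 129, 100.3, 95.3 and 97.9 CPM in control and 232, 252, 233 and 202 CPM in cKO, 1.14 higher on the log2 scale (SE 0.11, adjusted p = 0.0001003). The lowest cKO value of Id3 belonged to replicate 4, and every cKO library was above every control. Bmpr1b was at 2.81, 3.91, 3.72 and 4.29 CPM in control and 6.64, 7.998, 7.93 and 7.26 CPM in cKO, 1.03 higher (SE 0.16, adjusted p = 0.00102). These 3 genes kept their calls in all 8 fits that left out 1 library and in all 6 other settings.

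The remaining receptor and Smad differences at day 3 were small. Bmpr1a was at 149, 179.6, 179 and 161 CPM in control and 147, 133, 144 and 135 CPM in cKO (-0.24, SE 0.08, adjusted p = 0.0366). The highest cKO library was only just below the lowest control library, and the call was lost in 6 of 8 fits that left out 1 library. Bmpr2 was at 117, 101, 117 and 100.2 CPM in control and 94.3, 84.8, 90.1 and 154 CPM in cKO (-0.02, SE 0.20, adjusted p = 0.944). Its replicate 4 in cKO was the highest of the 8 libraries and the other 3 cKO libraries were below all controls. Without that library the difference was -0.28 (adjusted p = 0.0143). Smad1 was at 36.3, 34.5, 37.6 and 40.6 CPM in control and 31.8, 33.6, 31.1 and 28.7 CPM in cKO (-0.24, SE 0.07, adjusted p = 0.0282), so cKO was now the lower genotype, with a call lost in 4 of 8 fits that left out 1 library. Smad5 was at 96.5, 105, 108 and 97.1 CPM in control and 87.1, 82.9, 84.2 and 65.7 CPM in cKO (-0.33, SE 0.09, adjusted p = 0.0157), lower as at day 0 without overlap. With library totals alone, Bmpr1a (adjusted p = 0.12), Smad1 (0.149) and Smad5 (0.088) no longer passed.

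Id1, Id2 and Id4 behaved less evenly across libraries. Id1 was at 68.5, 58.2, 49.7 and 61.5 CPM in control and 76.8, 87.4, 88.9 and 56.8 CPM in cKO (0.40, SE 0.15, adjusted p = 0.0512). The first 3 cKO libraries were above all controls and replicate 4 fell among them, and without replicate 4 the difference was 0.51 (adjusted p = 0.00225). Id2 was at 38.5, 25.3, 28.2 and 24.7 CPM in control and 31.2, 29.7, 29.95 and 47.4 CPM in cKO (0.26, SE 0.20, adjusted p = 0.313), with overlap and no call in any of 14 alternative fits. Id4 was at 30.4, 21.1, 18.7 and 21.8 CPM in control and 33.9, 39.6, 34.5 and 86.1 CPM in cKO (1.103, SE 0.33, adjusted p = 0.023). All cKO libraries were above all controls, but replicate 4 carried much of the size: without it the difference was 0.65. The call was lost in 3 of 8 fits that left out 1 library, those without control replicate 2, 3 or 4 (adjusted p = 0.0622, 0.0631 and 0.061).

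From day 0 to day 3, Id1 and Id2 fell in both genotypes, Smad1 rose in both, and Id3 and Acvr1 took different courses. In control cultures 4 of the 10 genes changed (1 higher, 3 lower), where 56.9% of all genes did (28.1% higher, 28.8% lower), and 6 did not overlap between days, against 64.0%. In cKO cultures 6 of the 10 changed (4 higher, 2 lower), where 62.2% of all genes did (32.4% higher, 29.8% lower), and 6 did not overlap, against 62.5%. The median log2 change of the 10 genes was -0.11 in control and 0.22 in cKO. The 2 changes share no library, but both stand on the same pair of tables.

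Id2 had the largest fall. It dropped from 60.6 to 62.6 CPM at day 0 to 24.7 to 38.5 CPM at day 3 in control (log2 change -1.07, SE 0.18, adjusted p = 0.000196) and from 81.5 to 103 CPM to 29.7 to 47.4 CPM in cKO (-1.39, SE 0.18, adjusted p = 2.08e-05). Id1 dropped from 81.0 to 85.8 CPM to 49.7 to 68.5 CPM in control (-0.49, SE 0.14, adjusted p = 0.00853) and from 111 to 130.3 CPM to 56.8 to 88.9 CPM in cKO (-0.63, SE 0.14, adjusted p = 0.00148). Neither change differed between genotypes (Id1 difference -0.14, SE 0.20, adjusted p = 0.685; Id2 difference -0.32, SE 0.25, adjusted p = 0.432). A p that misses the threshold does not show that the changes were equal.

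Id3 fell in control (-0.27, SE 0.10, adjusted p = 0.0338) and rose in cKO (0.54, SE 0.10, adjusted p = 0.000535). The 2 changes differed by 0.81 (SE 0.14, adjusted p = 0.0026), a test passed by 16.8% of all genes (9.94% upward, 6.89% downward) and by 3 of the 10 here, 2 upward and 1 downward. The fall in control is the weaker side of this contrast: control replicate 1 at day 3 (129 CPM) was within the day 0 range, and the call was lost in 5 of 7 fits that left out 1 library and with library totals alone (-0.15, adjusted p = 0.28). The fall of Id1 in control likewise missed the threshold with library totals alone (-0.37, adjusted p = 0.0549). Acvr1 rose in cKO (0.42, SE 0.07, adjusted p = 0.000247) and had a change of -0.10 in control (SE 0.07, adjusted p = 0.239), a difference of 0.52 (SE 0.10, adjusted p = 0.00454). Smad1 rose by 0.72 in control (SE 0.08, adjusted p = 6.72e-06) and by 0.33 in cKO (SE 0.08, adjusted p = 0.00268), so that its rise was smaller in cKO by a difference of -0.40 (SE 0.11, adjusted p = 0.026). The Smad1 difference lost its call in 4 of 14 fits that left out 1 library, with an adjusted p up to 0.0748, and the Id3 and Acvr1 differences kept theirs in all 14. Without cKO replicate 4 at day 3, 5 of the 10 genes passed, with Bmpr2 (-0.45, adjusted p = 0.00555) and Id4 (0.54, adjusted p = 0.0441) in addition.

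The other genes changed little or unevenly with the day. Bmpr1b rose in cKO (0.53, SE 0.19, adjusted p = 0.0279), a call lost in 4 of 7 fits that left out 1 library, and had a change of 0.27 in control (adjusted p = 0.27). Bmpr1a (-0.12 in control, -0.09 in cKO), Bmpr2 (0.33 and 0.11) and Smad5 (0.12 and 0.05) did not pass in either genotype. Without cKO replicate 4 at day 3, the cKO change of Smad5 passed (0.13, adjusted p = 0.0289) and that of Bmpr2 was -0.13 (adjusted p = 0.161). Id4 had changes of -0.50 in control (adjusted p = 0.148) and 0.46 in cKO (adjusted p = 0.168; 0.036 without cKO replicate 4), whose difference of 0.96 (SE 0.40, adjusted p = 0.119) did not pass with all libraries. Library totals alone moved the median of all genes up by 0.12 in the control change, and turned the signs of the small Bmpr1a changes in both genotypes and of the Acvr1 change in control. From day 0 to day 3 the fibroblast marker sum went from 4592 to 6997 CPM to 10740 to 12520 CPM in control and from 2740 to 3316 CPM to 12100 to 13770 CPM in cKO, and its part in these changes was not tested.

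**Figure D3:**
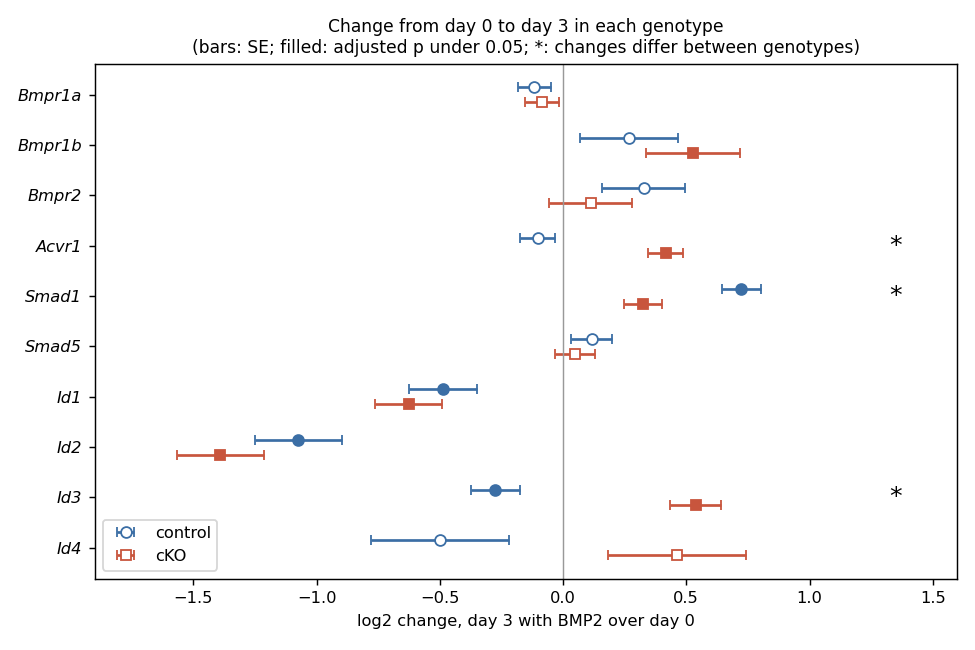
Log2 change from day 0 to day 3 (x axis) for each gene (rows) in control (blue circles) and cKO (red squares), with bars for the SE, filled symbols where the adjusted p was under 0.05, and asterisks where the changes differed between genotypes. Acvr1, Smad1 and Id3 carry the asterisk, and Id1 and Id2 lie left of 0 in both genotypes.

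In cartilage of postnatal day 5, 1 of the 9 genes tested differed between genotypes, where 6.19% of all genes did (3.15% higher, 3.04% lower). The groups did not overlap for 2 genes, Bmpr2 and Smad1, against 13.5% of all genes. Bmpr1b, at 3.60 to 8.26 CPM in control and 6.03 to 8.75 CPM in cKO, fell below the filter on low counts and was not tested. The median log2 difference of the 9 genes was -0.30, against 0.01 for all genes, and 3 of the 9 had an unadjusted p under 0.05, against 21.7% of all genes.

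Smad1 was the gene that passed. It was at 57.0, 70.0, 61.5 and 66.4 CPM in control and 25.2, 29.7, 51.7 and 54.3 CPM in cKO, 1.62-fold lower (-0.69, SE 0.19, adjusted p = 0.0382). All cKO libraries were below all controls, and the 2 lowest were the 2 cKO males. In males the difference was -1.20 (SE 0.22, adjusted p = 0.00725) and in females -0.28 (SE 0.20, adjusted p = 0.531). Of 8793 genes tested, 195 were called in males and 214 in females. These tests within each sex, and that of the difference between the sexes, were added after the values were seen. The difference between the sexes was 0.93 (unadjusted p = 0.00805, adjusted p = 0.875) and was not called. Of the 9 genes 0 passed that test with edgeR or DESeq2 and 3 had an unadjusted p under 0.05, against 0.0114% and 4.97% of all genes. The Smad1 call itself was lost with DESeq2 (adjusted p = 0.0685), with library totals alone (0.074), without sex as a covariate (0.0771), with the estimated counts of the same libraries (0.0644) and in 4 of 8 fits that left out 1 library (up to 0.133, without cKO replicate 1). The difference stayed between -0.82 and -0.56 in all of them.

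Id1, Id2 and Id3 had the highest CPM of the 10 genes in cartilage, and no Id gene was called there by edgeR or DESeq2, with Id2 alone at an unadjusted p under 0.05 (0.026). Id1 was at 337, 346, 321 and 346 CPM in control and 264, 278, 432 and 391 CPM in cKO (-0.01, SE 0.14, adjusted p = 0.97). The cKO males lay below and the cKO females above the control range, a difference between the sexes of 0.63 (unadjusted p = 0.0228, adjusted p = 0.989) that did not pass. Id3 was at 257, 281, 241 and 429 CPM in control and 202, 201, 422 and 335 CPM in cKO (-0.12, SE 0.18, adjusted p = 0.744). Id2 was at 302, 284, 259.6 and 332 CPM in control and 233, 216, 266 and 235 CPM in cKO (-0.32, SE 0.13, adjusted p = 0.164). Only 1 of the 4 cKO libraries reached the control range. Id4 was at 30.02, 29.01, 28.4 and 41.7 CPM in control and 38.6, 27.1, 16.9 and 24.98 CPM in cKO (-0.30, SE 0.23, adjusted p = 0.485), with overlap.

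The receptors in cartilage did not pass either. Bmpr2 was at 149, 166, 175 and 171 CPM in control and 145, 136, 128 and 124 CPM in cKO (-0.31, SE 0.12, adjusted p = 0.152), without overlap. Acvr1 was at 69.8, 65.7, 78.9 and 69.5 CPM in control and 53.7, 69.1, 46.4 and 59.4 CPM in cKO (-0.31, SE 0.15, adjusted p = 0.244). In culture Acvr1 was higher in cKO on both days, but tissue and culture were not tested against each other, since the assays differ. Bmpr1a (0.05, SE 0.13) and Smad5 (0.11, SE 0.13) overlapped between genotypes. The chondrocyte marker sum was 59210 to 89620 CPM in control and 26330 to 55160 CPM in cKO cartilage, the hypertrophic sum 578 to 1181 against 74.9 to 576 CPM, the osteoclast sum 124 to 452 against 57.9 to 119 CPM, the red cell sum 159 to 853 against 10.9 to 369 CPM and the muscle sum 11.95 to 17.3 against 58.9 to 91.0 CPM. These values moved with genotype, and their part in the differences above was not tested.

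**Figure D4:**
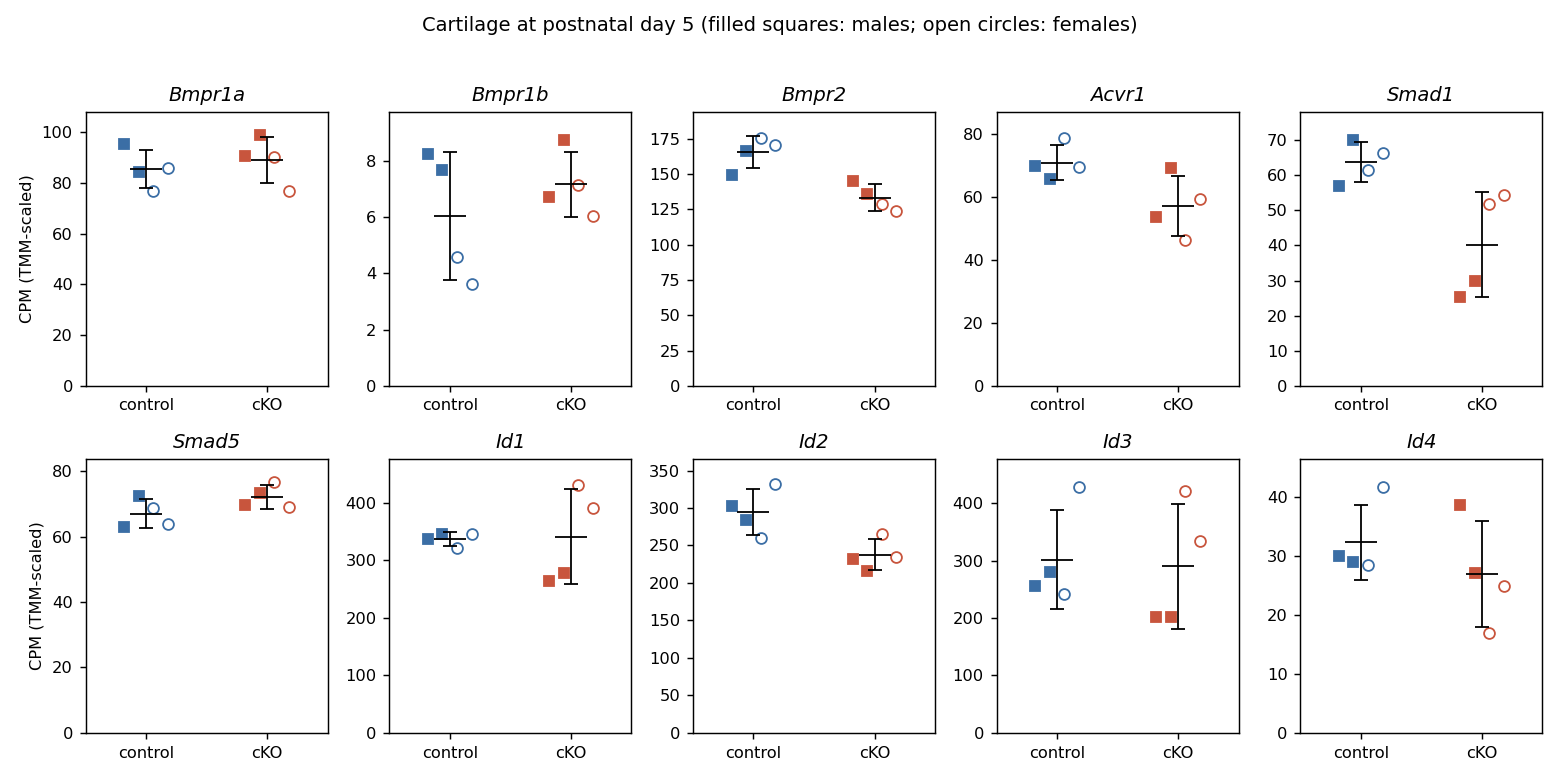
CPM of each gene in the 8 cartilage libraries (y axis, from 0) by genotype (x axis), with filled squares for males, open circles for females and bars for the mean and SD. Smad1 shows all cKO points below all control points, the 2 males lowest (25.2 and 29.7 CPM), and Bmpr1b is drawn although it was too low to be tested.

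The other genes of the pathway were taken from lists by role. Of 11 other Smads and regulators of Smads, 8 were higher and 1 lower in untreated cKO cultures and 7 were higher and 0 lower at day 3, with medians of 0.66 and 0.41, while 33.0% of all genes were higher and 31.6% lower at day 0 and 25.5% and 22.6% at day 3. Smad6, an inhibitory Smad of the BMP branch and itself a BMP target, was at 34.6 to 37.6 CPM in control and 57.8 to 65.8 CPM in cKO at day 0 (0.76, adjusted p = 3.75e-06) and at 28.7 to 38.4 against 86.2 to 115 CPM at day 3 (1.65, adjusted p = 3.03e-05). Smad7, which blocks receptors of both the BMP and the TGF-beta branch, was 1.09 higher at day 0 and 2.33 higher at day 3 (adjusted p = 1.39e-05 and 0.000447). Neither gene overlapped between genotypes on either day. Skil, a co-repressor that binds Smads, was 0.91 and 1.79 higher, and Tob1, an antiproliferative protein that restrains BMP Smads, 0.80 and 0.24 higher. Ppm1a, a phosphatase of Smads, was lower at day 0 (-0.35) and did not pass at day 3 (-0.14). Smad4, the shared partner, had differences of 0.00 and 0.10 that did not pass. In cartilage 0 of 10 tested passed with edgeR, DESeq2 or the estimated counts, and 1 had an unadjusted p under 0.05. With edgeR, 6.19% of all genes passed there and 21.7% had an unadjusted p under 0.05.

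**Figure D5:**
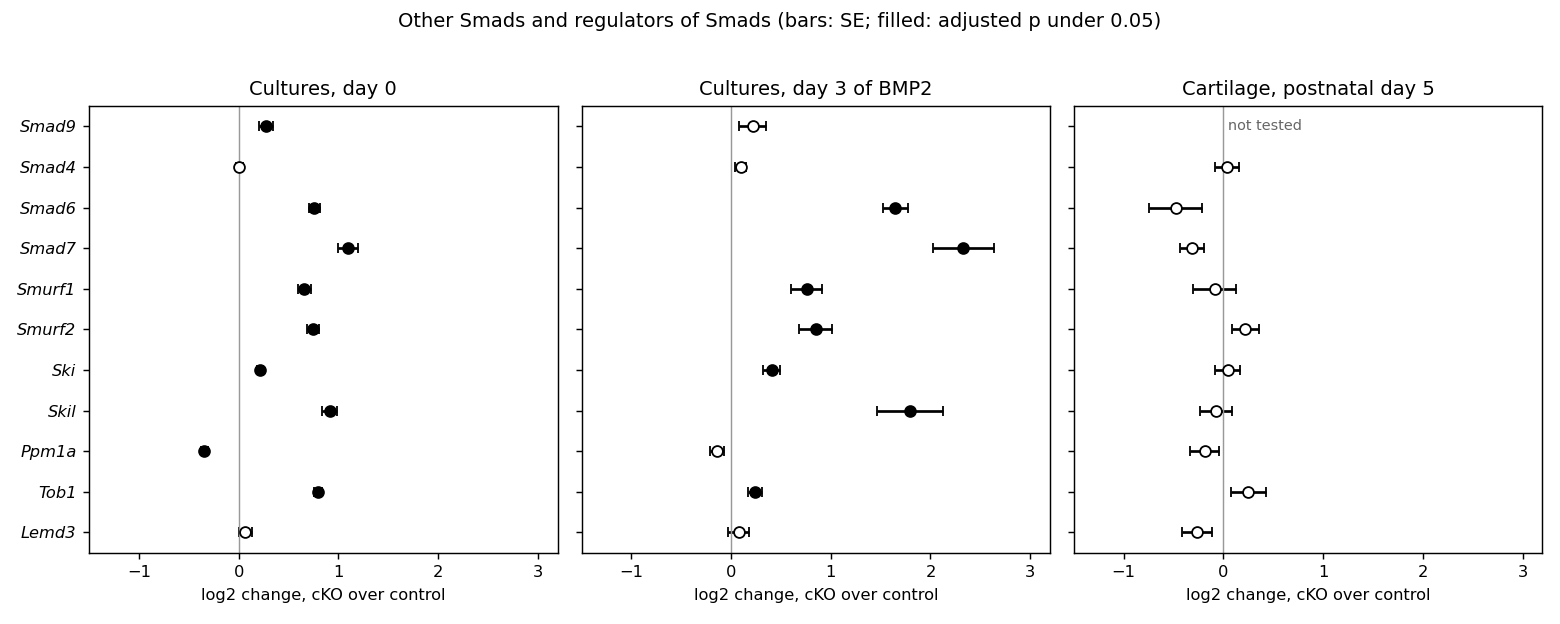
Log2 difference of cKO from control (x axis) for the 11 other Smads and Smad regulators (rows) in cultures at day 0, at day 3 and in cartilage, with bars for the SE and filled points where the adjusted p was under 0.05. Smad6, Smad7, Smurf1, Smurf2, Ski, Skil and Tob1 are filled to the right of 0 in both culture panels, and no point is filled in cartilage.

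Among 12 BMP target genes besides Id, 7 were higher and 3 lower at day 0 and 6 higher and 1 lower at day 3. Over all genes, 33.0% were higher and 31.6% lower at day 0, and 25.5% and 22.6% at day 3. Of the 12 changes from day 0 to day 3, 4 differed upward and 1 downward between genotypes, against 9.94% and 6.89% of all genes. The list holds Smad6 and Smad7, which the previous list also counts. It also holds Bambi and Nog, which the lists of other receptors and of antagonists below count again. Each of these shared genes is among those whose change with the day differed between genotypes. Msx2, a homeobox factor, was at 2.01 to 5.69 CPM in control and 10.2 to 35.9 CPM in cKO at day 3 (2.26, adjusted p = 0.00613; 1.62 without cKO replicate 4), and Prrx2, a factor of limb mesenchyme, at 20.1 to 29.3 against 66.1 to 122 CPM (1.91, adjusted p = 0.000234). Nog, a secreted BMP antagonist, was lower on both days (-0.62 and -1.67). In cartilage Runx2, the master regulator of bone formation and hypertrophy, was at 57.1 to 93.9 CPM in control and 37.8 to 47.2 CPM in cKO (-0.66, adjusted p = 0.0321), a call lost with DESeq2 (0.0788), with library totals alone (0.0651) and with the estimated counts (0.0682). It was the 1 gene called of 9 tested there, where 6.19% of all genes were called. Of those 9 genes, 6 had an unadjusted p under 0.05, against 21.7% of all genes. Their median log2 difference in cartilage was -0.39, against 0.01 for all genes.

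Of 10 other receptors and co-receptors, 2 of 9 tested were higher and 3 lower at day 0, and 2 were higher and 1 lower at day 3. Over all genes, 33.0% were higher and 31.6% lower at day 0, and 25.5% and 22.6% at day 3. Eng (endoglin), a co-receptor for TGF-beta and BMP9, was at 36.4 to 46.8 CPM in control and 135 to 154 CPM in cKO at day 0 (1.79, adjusted p = 3.07e-07) and at 35.8 to 52.3 against 156 to 428 CPM at day 3 (2.37, adjusted p = 0.000827). It was also the 1 gene of this list called in cartilage, at 36.0 to 55.0 CPM in control and 60.5 to 97.1 CPM in cKO (0.81, adjusted p = 0.011). There 7 of the list were tested, and 6.19% of all genes were called. An unadjusted p under 0.05 was found for 3 of the 7, against 21.7% of all genes. Endothelial cells express Eng strongly. At day 0, 5 other endothelial markers summed to 1.13 to 1.38 CPM in control and 3.27 to 3.84 CPM in cKO cultures. Both of the 2 that were tested there were called higher. At day 3 the same 5 markers summed to 0.3003 to 1.097 CPM in control and 1.382 to 1.614 CPM in cKO cultures. Only 1 of them was tested at day 3, and 0 were called. The sum in cartilage was 60.8 to 114 CPM in control and 42.0 to 87.5 CPM in cKO. The part that endothelial cells have in the Eng differences was not tested. Bambi, a decoy receptor that BMP induces, was lower at day 0 (-0.98, adjusted p = 7.12e-07) and did not pass at day 3 (0.28, adjusted p = 0.389), and its change with the day differed between genotypes (1.23, adjusted p = 0.0159). Of the 6 genes of the TGF-beta and activin arm, 4 were higher and 1 lower at day 0 and 2 of 5 tested were higher at day 3. The shares of all genes are those given above. In cartilage Acvr1b, an activin receptor, was lower (-1.15, adjusted p = 0.0298), a call lost with DESeq2 (0.0639). It was the 1 gene called of 5 tested there, and 2 of the 5 had an unadjusted p under 0.05.

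From day 0 to day 3, 9 of 11 ligands tested changed in each genotype, and of 12 antagonists 6 changed in control and 10 in cKO, where 56.9% of all genes changed in control and 62.2% in cKO. Of 14 ligands, 12 were tested at day 0, with 4 higher and 3 lower in cKO, and 9 at day 3, with 2 higher and 1 lower. Over all genes, 33.0% were higher and 31.6% lower at day 0, and 25.5% and 22.6% at day 3. In cartilage 0 of 7 ligands tested were called by edgeR or DESeq2, with 0 at an unadjusted p under 0.05. With edgeR, 6.19% of all genes were called there and 21.7% had an unadjusted p under 0.05. Gdf5, a joint-forming ligand that signals through Bmpr1b, was at 16.6 to 19.8 CPM in control and 43.4 to 48.5 CPM in cKO at day 0 (1.36, adjusted p = 7.75e-07) and 3.63 to 6.49 against 8.44 to 11.98 CPM at day 3 (0.98, adjusted p = 0.00363). Bmp6, a ligand of maturing cartilage, was lower in cKO on both days (-1.83 and -2.74). Of 14 secreted antagonists, 12 were tested: 3 were higher and 7 lower at day 0, and 5 were higher and 4 lower at day 3, against the same shares of all genes. Grem1, which binds BMP2 and BMP4, rose from 15.95 to 21.6 CPM at day 0 to 1644 to 2314 CPM at day 3 in control and from 7.95 to 10.4 CPM to 960.5 to 1563 CPM in cKO (log2 changes 6.73 and 6.94). Those changes did not differ between genotypes beyond their error (0.21, SE 0.26, adjusted p = 0.63). In cartilage 0 of 8 antagonists tested were called by edgeR or DESeq2, with 3 at an unadjusted p under 0.05, against 6.19% and 21.7% of all genes with edgeR. The estimated counts called Nog lower (-1.01, adjusted p = 0.0392).

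The bHLH proteins that Id proteins hold were also listed. Of 10, 6 of 7 tested were higher and 1 lower in cKO at day 0, and 4 of 8 were higher and 1 lower at day 3. Over all genes, 33.0% were higher and 31.6% lower at day 0, and 25.5% and 22.6% at day 3. In cartilage 0 of 5 were called by edgeR, DESeq2 or the estimated counts, and 2 had an unadjusted p under 0.05. With edgeR, 6.19% of all genes were called there and 21.7% had an unadjusted p under 0.05. Among the E protein genes, Tcf12 was lower in cKO on both days (-0.23 and -0.34). At day 0 Tcf4 was 0.39 higher and Tcf3 0.10 higher, a call for Tcf3 that was lost with DESeq2 (adjusted p = 0.0755). From day 0 to day 3 Tcf4 rose by 0.95 in control cultures (SE 0.15, adjusted p = 0.000116). Twist1, a bHLH factor of mesenchyme, was 0.46 and 0.78 higher, and Scx (scleraxis), a bHLH factor of tendon, 1.15 and 2.60 higher. Of 8 bHLH genes tested, the day change differed upward between genotypes for Scx (1.42, adjusted p = 0.0072) and downward for Twist2 (-1.38, adjusted p = 0.0117). No other gene of this list was called in that test, Tcf4 included. Over all genes, 9.94% differed upward and 6.89% downward. Myod1, the master regulator of muscle, had 0 counts in every control library at day 0 and was at least 172.4-fold higher in cKO, against a floor of 3 counts a library, and at least 153.6-fold higher at day 3. Myog (myogenin) was at least 235.6-fold higher in cKO at day 3. Whether the cells that held these myogenic transcripts also held Id transcripts was not tested.

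Across the 14 culture libraries the genes most like Id1, by Pearson's r of log2 CPM over 12297 genes, were Ube2t (0.978), Mrps11 (0.971), Snrpa1 (0.970), Esf1 (0.970) and Trim59 (0.967). Among the 10 genes themselves, Id1 went with Id2 (0.763) more than with Id3 (0.410), and Id3 went with Acvr1 (0.925) and Bmpr1b (0.800). Smad1 and Id2 ran opposite (-0.850), as did Smad5 and Id4 (-0.880). The 14 libraries share 4 groups and 2 tables, so these values describe the same group differences given above and carry no test.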

How the data were processed

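Per the labels, culture RNA went through a stranded total RNA kit and cartilage RNA through BRB-seq, a barcoded 3′ tag protocol with unique molecular identifiers. For cultures the authors deposited estimated counts, in separate tables for day 0 and day 3 (quantifier not given in the sources used here), and for cartilage both whole-number counts per gene and estimated counts. Per the submitters' processing notes, all samples used GRCm38, and the cartilage samples name UMI-tools 1.1.1, Trim Galore 0.6.7, HISAT2 2.2.1, featureCounts 2.0.1 and DESeq2 1.34.0. Estimated counts were rounded. The cartilage design had been written for estimated counts, but the table named for these genes holds whole-number counts, which were used, with the estimated counts as an alternative.

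Symbols came from GENCODE M21, which held 34652 of 34866 culture IDs and 23884 of 23911 cartilage IDs. Each fit used edgeR 4.0.16 (R 4.3.3): TMM, removal of genes with low counts (filterByExpr, minimum 10), quasi-likelihood test, Benjamini-Hochberg adjustment over all genes tested, threshold 0.05. Genotype was tested within each day. Day changes and their difference used 1 fit of 14 cultures. Cartilage had sex as covariate. Alternatives were DESeq2 1.42.0, other scalings, no filter, a replicate block and leaving out each library. On simulated counts for day 0, 80.0% of genes changed by 1 log2 unit were recovered among 15299 genes, 58.0% for day 3 among 13760, 62.0% for cartilage among 8574 and 50.0% for the difference of day changes among 14573. In each simulation 100 genes changed by 1 and 100 by 2 log2 units, a smaller share than was called in the data. Changes under 1 log2 unit were not simulated, so these rates need not hold for the data. The number of libraries limits precision: replicates that share a table and kit differ only as these samples do. From each of 7 pathway lists and in each comparison, up to 4 called genes of largest difference could be named, given an average log2 CPM no lower than 1. Other list genes named (such as Smad4, Ppm1a, Tcf3 and Tcf12) were chosen after their values were seen. The members and lists were chosen with earlier results of these data known. A gene of the lists is not reported here by name.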

Additional observations from a re-analysis of the deposited data

Results flagged for a closer look

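In 40 groups of 4 libraries, 5 values lay far from the other 3 (chance gives about 1 in 20 groups). Of these, 3 belonged to cKO replicate 4 at day 3: Bmpr2 at 154.3 CPM (others 84.8 to 94.3), Id2 at 47.4 CPM (others 29.7 to 31.2) and Id4 at 86.1 CPM (others 33.9 to 39.6). Its chondrocyte marker sum of 1113 CPM was also the lowest of its group, and what part this has in the 3 values was not tested. Id3 in control replicate 1 at day 3 was at 128.5 CPM, with the others from 95.3 to 100.3 CPM. Id4 in control replicate 4 of cartilage was at 41.7 CPM, with the others from 28.4 to 30.02 CPM.

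The genotype effect differed between day 3 and day 0 for 3 genes by the interaction test. For Acvr1 it was larger at day 3 by 0.52, for Id3 larger by 0.81 and for Smad1 it changed by -0.40, from 0.14 at day 0 to -0.24 at day 3.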

How the results depend on the processing

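At day 0 the number of the 10 genes called was 8 in the main analysis. At day 3 it was 7, against 4 with library totals alone and 4 to 9 with 1 library left out. In cartilage it was 1, against 0 with DESeq2, 0 with library totals alone, 0 without the sex covariate, 0 with the estimated counts (added after the data were seen) and 0 to 1 with 1 library left out. The difference between the day changes was called for 3 genes, and for 2 to 5 with 1 library left out (5 without cKO replicate 4 at day 3). The cause of these shifts was not tested. Over all genes, library totals alone moved the split of calls at day 0 from 5119 higher and 4904 lower to 6452 and 3695, in cartilage from 277 and 267 to 289 and 156, and in the control day change from 4183 and 4293 to 5136 and 3219. All calls at day 0 went from 10023 to 6260 in the fit of all cultures, and in cartilage from 544 to 357 with DESeq2, 1044 without the filter and 362 without cKO replicate 4. In the difference of day changes, 2509 calls became 4051 without cKO replicate 4 at day 3, and 1591, 1668 and 1604 without control replicate 2, control replicate 3 and cKO replicate 3 of day 0.

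Signs turned only for differences that did not pass. With library totals alone these were Bmpr2 at day 3 (0.01431), Id1 in cartilage (0.04266), Bmpr1a (0.008088) and Acvr1 (0.02282) in the control day change, Bmpr1a in the cKO day change (0.004553) and Bmpr1a in the difference of day changes (-0.003535). Id1 in cartilage was 0.01469 without the sex covariate. With 1 library left out, Bmpr2 at day 3 ran from -0.28 to 0.081, Id1 in cartilage from -0.11 to 0.061, Smad5 in the cKO day change from -0.024 to 0.13, Bmpr2 there from -0.13 to 0.19, Bmpr1a in the difference of day changes from -0.021 to 0.066 and Smad5 there from -0.12 to 0.016. In the difference between the sexes Bmpr1a ran from -0.17 to 0.063, Smad5 from -0.046 to 0.15 and Id2 from -0.022 to 0.33. Over 971 alternative values, 874 kept direction and side of the threshold, 49 lost a call, 17 gained one and 31 turned.

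Same-numbered libraries did not pair: correlations of their deviations from group means ran from -0.229 to 0.26. With the replicate block, 8 genes were called at day 0, 5 at day 3, 1 in cartilage, 4 and 5 in the control and cKO day changes and 3 in their difference, and Bmpr2 in the cKO day change was -0.004312. Without cKO replicate 4 at day 3, 7 of 11 other Smads were higher and 1 (Ppm1a, -0.18) lower, 6 of 12 targets higher and 1 lower, and 5 of 12 antagonists higher and 6 lower in cKO. Of 14159 genes tested without that library, 4074 were higher and 3734 lower.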
